A study of Mus musculus with 9 samples.

Results

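Trim34a, Trim34b, Trim12a, Trim12c, Trim30a, Trim30d, Trim21 and Trim25 are 8 mouse genes of the tripartite motif (TRIM) family that are known for antiviral roles. They are 8 of the 25965 rows of the deposited table and were taken by symbol, each as 1 row. The set was chosen by known antiviral role and by the measured difference between deleted and control cultures, with earlier results in view, so the members' differences in that comparison are a description and not a test.

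RNA was sequenced from neural stem cells, the self-renewing cells of the developing brain, derived from C57BL/6 embryos at E14.5 that carried floxed alleles of Smchd1 (Smchd1 fl/fl). Smchd1 encodes a chromatin protein that takes part in gene silencing. Each line was split: the deleted part (Smchd1 del/del, 4 libraries: female lines 1, 2 and 3 and male line 5) received the retrovirus MSCV-Cre-puro, then puromycin from 24 h, and was harvested on day 7. The control part (Smchd1 fl/fl, 5 libraries: female lines 1, 2 and 3 and male lines 5 and 7) stayed untransduced, so that loss of Smchd1, retrovirus and puromycin cannot be told apart. The labels do not say whether each line came from its own embryo. Groups follow the sample labels, although the series' own design text names del/fl controls and female lines.

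TRIM proteins carry a RING domain, which makes most of them ubiquitin ligases, followed by B-box and coiled-coil domains, and many end in a PRY-SPRY domain that recognises a target. Several are induced by interferon and act on viruses directly or on the sensors that detect them. Trim12a and Trim12c are mouse relatives of the retroviral restriction factor TRIM5, Trim34a and Trim34b are the mouse counterparts of human TRIM34, and Trim30a is known as a brake on Toll-like receptor signalling. Trim21 is the cytosolic receptor of antibodies, and Trim25 ubiquitinates the RNA sensor RIG-I, the product of Ddx58. Interferon-stimulated genes are known to be switched on through the interferon-stimulated response element (ISRE), a repeat of GAAA that binds interferon-activated transcription factors.

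The starts of the genes are shown because 6 of the 8 hold that repeat. Promoters were taken from RefSeq (build GRCm38.p6), which had an entry for all 8 genes, each 300 bases long (250 before and 50 after the start). The motif searched was GAAA, any 2 bases and GAAA (TTTC, any 2 bases and TTTC on the other strand, overlaps allowed). It was found in Trim34a, Trim12a, Trim12c, Trim30a, Trim30d and Trim21, against 3.44% of all 32851 promoters of the same length. The gamma-interferon site TTCNNNGAA was in none of the 8, against 8.30% of all promoters. The lines below run from base -80 to base 30 of the start site, 5′ to 3′ on the strand of the gene, with the ISRE match in capitals.
Trim34a: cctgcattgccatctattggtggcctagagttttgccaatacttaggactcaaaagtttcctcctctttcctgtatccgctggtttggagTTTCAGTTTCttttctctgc
Trim12a: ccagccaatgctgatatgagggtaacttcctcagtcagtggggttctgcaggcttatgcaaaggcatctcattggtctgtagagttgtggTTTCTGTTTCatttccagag
Trim12c: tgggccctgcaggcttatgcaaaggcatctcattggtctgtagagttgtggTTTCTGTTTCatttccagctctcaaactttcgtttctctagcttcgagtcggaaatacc
Trim30a: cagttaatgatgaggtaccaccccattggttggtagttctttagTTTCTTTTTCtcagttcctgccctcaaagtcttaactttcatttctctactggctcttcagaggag
Trim30d: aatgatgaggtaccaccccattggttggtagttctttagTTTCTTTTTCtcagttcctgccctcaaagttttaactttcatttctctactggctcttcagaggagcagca
Trim21: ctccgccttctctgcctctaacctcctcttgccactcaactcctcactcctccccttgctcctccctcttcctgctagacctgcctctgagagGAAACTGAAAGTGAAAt
The windows are chr7:104244377-104244486 on the plus strand for Trim34a, chr7:104315466-104315575 on the minus strand for Trim12a, chr7:104353320-104353429 on the minus strand for Trim12c, chr7:104465164-104465273 on the minus strand for Trim30a, chr7:104507820-104507929 on the minus strand for Trim30d and chr7:102565453-102565562 on the minus strand for Trim21. The match began at base 11 in Trim34a and Trim12a, at base -29 in Trim12c, at base -36 in Trim30a, at base -41 in Trim30d and at base 14 in Trim21, where 2 matches overlapped. These bases count from the RefSeq starts. In the GENCODE vM21 annotation Trim12a begins at 104315466, the last base of its window, so its match lies upstream of that start. A second RefSeq start of Trim30a also held the motif. The promoters of Trim30a and Trim30d shared an identical run of 118 bases, and those of Trim12a and Trim12c one of 71 bases. No match was found in these windows of Trim34b and Trim25, whose starts read as follows.
Trim34b: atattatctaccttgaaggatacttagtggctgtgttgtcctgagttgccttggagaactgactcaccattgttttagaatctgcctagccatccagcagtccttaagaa
Trim25: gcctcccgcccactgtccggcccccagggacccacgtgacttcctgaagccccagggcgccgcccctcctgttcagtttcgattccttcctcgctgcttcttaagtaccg
These 2 windows are chr7:104329391-104329500 on the plus strand for Trim34b and chr11:88999323-88999432 on the plus strand for Trim25. A match is a description of the letters and not a site, and the absence of one says nothing of binding elsewhere.

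The libraries held 24.1 M to 116.6 M reads, of which 12.9 M to 44.9 M fell in listed rows. Female fl/fl 2 was the shallowest. Values are given as log2 RPM, the reads in a row scaled to the total reads of its library (in M), and a row with no read is entered as 0.9 reads. The targeted gene was lower in every deleted library: Smchd1 lay at 5.04 to 5.36 in del/del and 6.16 to 6.81 in fl/fl (log2 difference -1.19, SE 0.148). All 10 neural stem cell markers were above the filter on low values (3 or more libraries at a level of 0 or higher), with median levels of 2.33 to 7.30. Of 10 microglia and leukocyte markers 6 stayed below 0 in every library, among them Ptprc, Aif1, Itgam and Tyrobp. Csf1r (mean 2.47 in del/del and 2.52 in fl/fl) and P2ry12 (2.32 and 2.44) passed the filter, each with overlapping groups. Summed levels of the list were 113 to 125 RPM in del/del and 98.4 to 132 RPM in fl/fl, most of it in the Cx3cr1 row, whose span takes in several other genes such as Gorasp1 and Ttc21a. Summed endothelial markers were 3.82 to 7.96 RPM in del/del and 2.65 to 4.48 RPM in fl/fl, with Pecam1, Cdh5, Cldn5 and Tek below 0 throughout. The other 2 endothelial markers had log2 differences of 1.84 (Flt1, limma adjusted p = 0.106) and 0.61 (Kdr, 0.497), both with overlapping groups and an unadjusted p below 0.05. Summed fibroblast markers were 39.6 to 52.9 RPM in del/del and 24.8 to 46.2 RPM in fl/fl, with Dcn and Lum below 0 throughout. Thy1 of that list had 0.80 (limma adjusted p = 0.0848) and Cd68 of the microglia and leukocyte list 0.59 (0.164), each higher in every deleted library than in any control. The part of these cells in the results was not tested.

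The rows of 6 of the 8 TRIM genes were higher in every deleted culture than in any control culture, but these rows are not 6 separate measurements. The Trim34b and Trim12a rows hold nearly the same reads, and both lie inside the Trim34a row, as described below. By row, Trim30a was 10.2-fold higher (with no filter on low values), Trim34b 6.95-fold, Trim12a 6.25-fold, Trim12c 6.04-fold, Trim34a 4.86-fold and Trim25 2.01-fold, while Trim21 and Trim30d overlapped between the groups. Of the 7 rows that passed the filter on low values, 5 passed the threshold of the limma fit over all genes (adjusted p below 0.05, sex as covariate) and all 5 rose: Trim34a, Trim34b, Trim12a, Trim12c and Trim25. Among all 14044 genes tested 1.45% rose and 0.0997% fell. Trim34b, Trim12a and Trim12c passed the filter through deleted libraries alone, as their highest fl/fl values were -1.43, -1.29 and -1.49. Such a row enters the fit only where it is high in del/del. Every del/del library lay above every fl/fl library in the same 5 genes and in Trim30a, which was not kept, against 5.53% of all kept genes. The genes were chosen with this contrast known, so nothing is read from these counts. In bulk RNA a higher level in each cell and a larger share of expressing cells cannot be told apart.

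**Figure D1:**
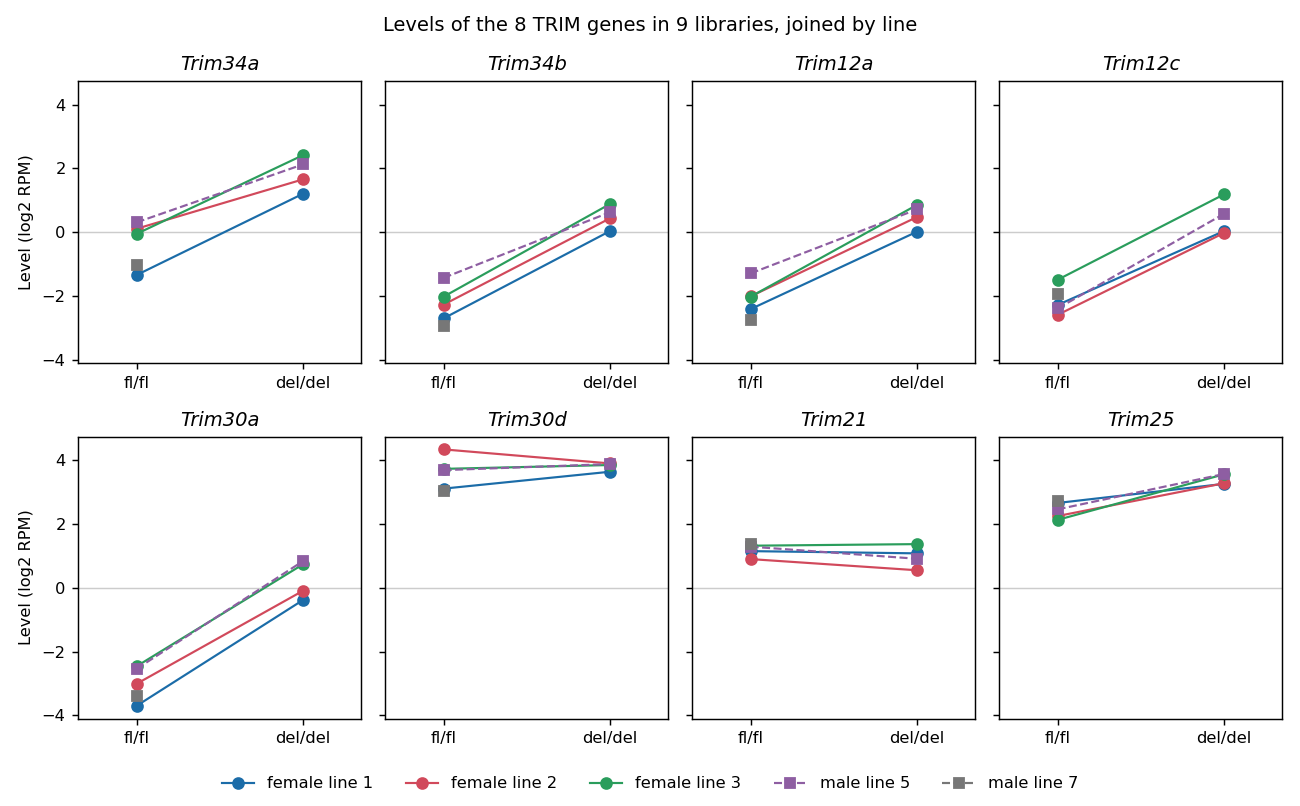
Level of each gene (log2 RPM, vertical axis) in fl/fl and del/del libraries, with lines joining the 2 cultures of 1 line (circles female, squares male; line 7 has no deleted culture). The 4 del/del values lie above all 5 fl/fl values in 6 panels, and in the panels of Trim30d and Trim21 the groups overlap.

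Several rows of the chromosome 7 genes share reads. The table counts reads over whole row spans, introns included: in all 2207 pairs in which 1 row of the table lies inside another, the inner row had no more reads than the outer row in any library. Per the table (build mm10), the Trim34a row runs from 104244457 to 104340693 on chromosome 7. The GENCODE vM21 gene ends at 104262234, so that the row is 96.2 kb long against 17.8 kb for the gene. This row encloses the Trim5, Trim12a and Trim34b rows whole, and 1940 bases of the Trim12c row with 51.9% of the exon bases of Trim12c.

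The Trim34b row runs from 104300230 to 104336909, whereas the GENCODE gene begins at 104329471. It therefore takes in 94.2% of the exon bases of Trim12a (row 104299894 to 104315466, minus strand), while no exon base of Trim34b lies in the Trim12a row. Whether reads were counted by strand is not stated in the sources used here. The plus-strand Trim34b row and the minus-strand Trim12a row differed by -10 to 4 reads per library. The comparisons of nested rows below take reads as counted on both strands. The Trim12c row (104338754 to 104353362), the Trim30a row (104409025 to 104465193) and the Trim30d row (104470014 to 104507849) had the ends of the GENCODE genes. So did the Trim25 row on chromosome 11 (88999376 to 89020293). The Trim21 row (chromosome 7, 102557922 to 102565469) held 3696 of the 3714 exon bases of its gene. The rows of Trim30a, Trim30d, Trim21 and Trim25 overlapped no other row of the 8 genes.

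**Figure D2:**
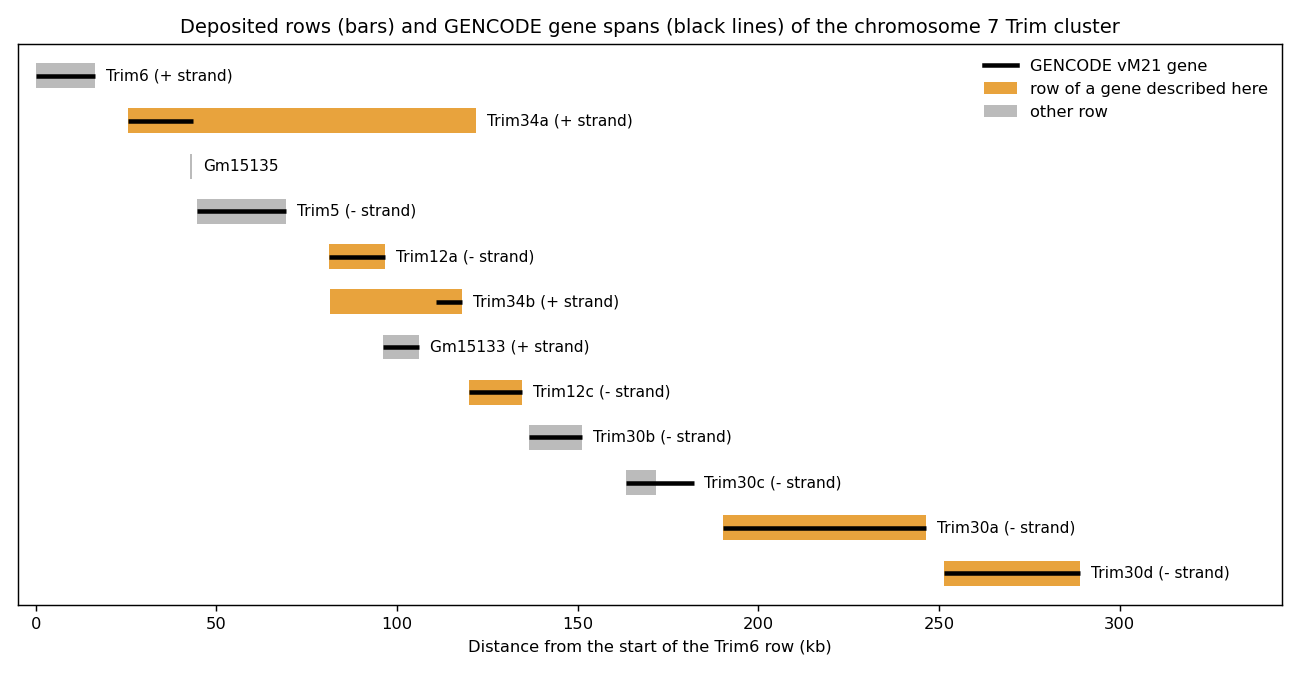
Rows of the deposited table (bars) and GENCODE vM21 gene spans (black lines) along the chromosome 7 cluster, as distance in kb from the start of the Trim6 row. The Trim34a and Trim34b bars run far beyond their genes, and both take in Trim12a. The Trim34b bar leaves out 336 bases at the left end of Trim12a, which is the 3′ end of this minus-strand gene.

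Sequence is shared as well. Over the longest coding sequences of GENCODE, Trim34a and Trim34b were 98.2% identical, Trim12a and Trim12c 96.4%, and Trim30a and Trim30d 90.2%, whereas Trim21 and Trim25 were 64.0% identical. Of all 50-base words in the transcripts of Trim34b 56.8% also occurred in another gene, and for Trim34a the share was 59.7%. The shares were 33.7% for Trim12c, 10.5% for Trim12a, 7.49% for Trim30d, 5.98% for Trim30a, 0.295% for Trim25 and 0.216% for Trim21. How reads with several places were treated is not given in the sources used here, so the values of Trim34a and Trim34b, and those of Trim12c in part, are uncertain between copies.

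Trim12a, whose longest GENCODE coding sequence has 297 codons against 497 for Trim12c, lay at 0.02, 0.48 and 0.86 in female del/del 1, 2 and 3 and at 0.72 in male del/del 5. It lay at -2.41, -2.01 and -2.02 in female fl/fl 1, 2 and 3, and at -1.29 and -2.76 in male fl/fl 5 and 7. The groups did not overlap, and male fl/fl 5 was the highest control. Their means were 0.52 ± 0.368 (SD, n = 4) and -2.10 ± 0.550 (SD, n = 5), and the log2 difference adjusted for sex was 2.64 (SE 0.441). These levels rest on 75 to 179 reads per deleted and 6 to 43 reads per control library.

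Trim34b had almost the values of Trim12a: 0.04, 0.44, 0.89 and 0.63 in female del/del 1, 2 and 3 and male del/del 5. In female fl/fl 1, 2 and 3 and male fl/fl 5 and 7 it had -2.70, -2.27, -2.02, -1.43 and -2.94. Its log2 difference was 2.80 (SE 0.466), a 6.95-fold higher level. Over the 9 libraries the Trim34b row had 664 reads and the Trim12a row 684, and the rows differed by 10 reads or fewer in each library. After subtraction of its own mean, each row followed the other with a root mean square difference of 0.113 on the log2 scale. The Trim12a row has only 336 bases outside the Trim34b row, and all exons of Trim34b lie outside the Trim12a row. Reads of the Trim34b row outside the Trim12a row therefore exceeded those in the 336 bases by at most 4 in any library. How many reads the 336 bases hold is not known here. The 6.95-fold difference is that of the row and cannot be assigned to Trim34b itself.

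Trim34a lay at 1.21, 1.66, 2.42 and 2.13 in female del/del 1, 2 and 3 and male del/del 5. It lay at -1.34, 0.11, -0.05, 0.31 and -1.02 in female fl/fl 1, 2 and 3 and male fl/fl 5 and 7, so the groups did not overlap. The log2 difference was 2.28 (SE 0.407). The controls split: female fl/fl 1 and male fl/fl 7, the 2 control libraries without the RNA- prefix in their names, were the lowest. That split was also in the nested Trim5 row, at -3.87 and -3.27 in these libraries against -0.34, -0.85 and -0.86 in female fl/fl 2 and 3 and male fl/fl 5. Female del/del 1 also lacks the prefix and was the lowest deleted library in both rows. With the prefix as a covariate in the limma fit the same count of 5 genes passed.

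Nested rows held most of the reads of the Trim34a row. After taking away the reads of the Trim5 row, of the 0.7 kb Gm15135 row and of the larger of the Trim12a and Trim34b rows, at most 60, 110, 214 and 186 reads were left in female del/del 1, 2 and 3 and male del/del 5. In female fl/fl 1, 2 and 3 and male fl/fl 5 and 7 at most 14, 1, 18, 25 and 25 were left, provided that no spliced read fell in 2 of these rows. The remainder averaged 0.44 ± 0.663 log2 RPM over deleted libraries (SD, n = 4) and -2.91 ± 1.016 over controls (SD, n = 5), without overlap. It still holds the reads of the stretch shared with Trim12c, whose number is not known here. The whole Trim12c row had 76, 104, 226 and 152 reads in the same deleted libraries and 24, 4, 39, 20 and 30 in the same controls. The remainder therefore cannot be assigned to Trim34a alone. The Gm15135 row covers 27.4% of the exon bases of Trim34a and touches no other TRIM gene. It had 11, 22, 44 and 30 reads in female del/del 1, 2 and 3 and male del/del 5, and 2, 0, 0, 4 and 3 reads in female fl/fl 1, 2 and 3 and male fl/fl 5 and 7.

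**Figure D3:**
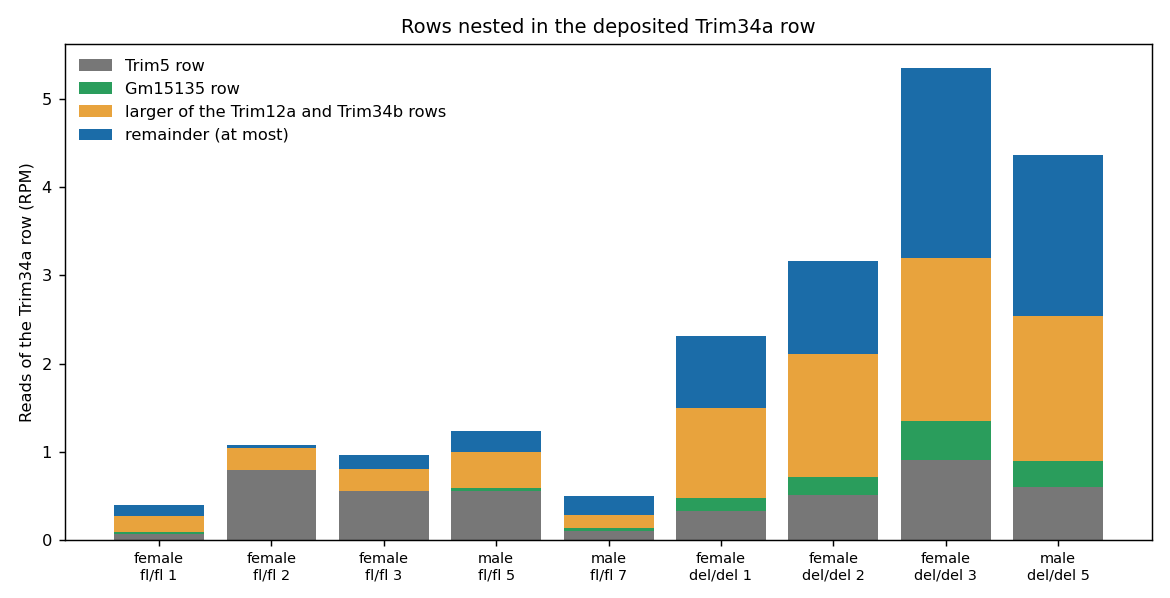
Reads of the Trim34a row in each library (RPM, vertical axis), stacked by the rows nested in it, with the remainder at the top. The remainder and the part of the Trim12a and Trim34b rows are larger in the 4 del/del libraries, whereas the Trim5 part of 3 controls lies within the range of the deleted libraries.

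Trim12c, the full-length neighbour of Trim12a, lay at 0.04, -0.02, 1.19 and 0.58 in female del/del 1, 2 and 3 and male del/del 5. It lay at -2.28, -2.59, -1.49, -2.39 and -1.94 in female fl/fl 1, 2 and 3 and male fl/fl 5 and 7. Line 3 was the highest in each group, and the groups did not overlap. The log2 difference was 2.59 (SE 0.457), a 6.04-fold higher level. The row overlaps neither the Trim12a row nor the Trim34b row, and shares with the Trim34a row the 1940 bases given above.

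Trim30a had the largest difference of the 8 genes but did not pass the filter. Its level was at least 0 in only 2 libraries, female del/del 3 and male del/del 5. It lay at -0.38, -0.09, 0.74 and 0.84 in female del/del 1, 2 and 3 and male del/del 5, or 57, 99, 165 and 182 reads. It lay at -3.70, -3.01, -2.46, -2.54 and -3.39 in female fl/fl 1, 2 and 3 and male fl/fl 5 and 7, or 9, 3, 20, 18 and 11 reads. With no filter on low values the log2 difference was 3.35 (SE 0.410), 10.2-fold, and in that fit 1.19% of 22321 genes rose.

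Its neighbour Trim30d, 90.2% identical in coding sequence and with the same ISRE letters, lay at 3.64, 3.90, 3.85 and 3.88 in female del/del 1, 2 and 3 and male del/del 5. It lay at 3.11, 4.34, 3.73, 3.69 and 3.03 in female fl/fl 1, 2 and 3 and male fl/fl 5 and 7. The highest and the lowest of the 9 values were both controls, and the log2 difference of 0.21 was smaller than its SE of 0.241. The lowest 2 controls again lacked the RNA- prefix. In the 6 libraries with the prefix the log2 difference of Trim30d was -0.05. Trim30b and Trim30c, the other copies in the cluster, had at most 1 read in any library.

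Trim21 was the other gene without a difference beyond the spread. It lay at 1.08, 0.55, 1.37 and 0.91 in female del/del 1, 2 and 3 and male del/del 5. It lay at 1.15, 0.90, 1.32, 1.29 and 1.36 in female fl/fl 1, 2 and 3 and male fl/fl 5 and 7. The deleted values spanned the range of the controls, and the log2 difference was -0.21 (SE 0.202). Its start holds the 2 overlapping ISRE matches printed above.

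Trim25, alone on chromosome 11, lay at 3.26, 3.28, 3.56 and 3.57 in female del/del 1, 2 and 3 and male del/del 5. It lay at 2.66, 2.25, 2.13, 2.46 and 2.71 in female fl/fl 1, 2 and 3 and male fl/fl 5 and 7, without overlap. The means were 3.42 ± 0.173 (SD, n = 4) and 2.44 ± 0.251 (SD, n = 5), and the log2 difference was 1.01 (SE 0.136). With 115 to 1213 reads per library and little sequence in common with other genes, it had more reads in every library than the other 5 genes whose groups did not overlap.

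Within lines the difference was largest for Trim30a and smaller for Trim25. Trim30a was higher in the deleted culture by 3.32, 2.92, 3.19 and 3.38 on the log2 scale in lines 1, 2, 3 and 5, and Trim12c by 2.32, 2.58, 2.68 and 2.97. Trim25 was higher by 0.60, 1.02, 1.43 and 1.12, smallest in line 1. Trim34a was higher by 2.55, 1.55, 2.47 and 1.82, Trim34b by 2.73, 2.71, 2.91 and 2.06, and Trim12a by 2.43, 2.49, 2.88 and 2.01. Trim30d had 0.52, -0.45, 0.12 and 0.19, beside medians over all kept genes of 0.22, -0.25, 0.10 and 0.08 in the same lines. Trim21 had -0.08, -0.35, 0.05 and -0.37. Thus the rows of 6 genes were higher in all 4 lines, against 17.9% of all kept genes. Trim30a is among the 6 but was not kept, and the rows that share reads are not separate measurements. With the line as a block in the limma fit the same 5 genes passed, where 3.77% of all genes rose.

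**Figure D4:**
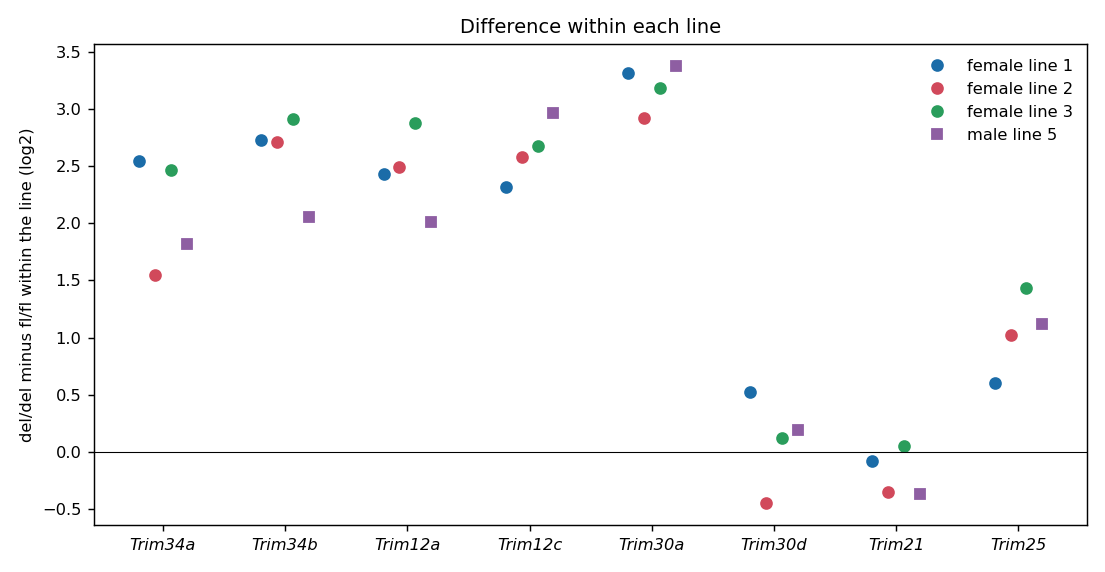
Difference of del/del minus fl/fl within each of 4 lines (log2, vertical axis) for the 8 genes, circles female and squares male. Points of Trim30a lie between 2.92 and 3.38, those of Trim25 between 0.60 and 1.43, and those of Trim30d and Trim21 on both sides of 0.

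The count of rows that passed depended on the libraries, as did the count over all 14044 genes, where 203 rose with every library in. Without male del/del 5 none of the 8 passed by limma (5 had an unadjusted p below 0.05), and 2 of all genes rose. Without female del/del 2 or 3 only Trim25 passed, while 50 and 126 of all genes rose. Without female del/del 1 Trim12a and Trim25 passed (61 of all genes rose), and without female fl/fl 3 Trim12c and Trim25 (88 of all genes). With the line as a block in the 6 female libraries alone, an analysis added after seeing the data, the 5 genes passed, and 274 of all genes rose. With quantile normalization Trim34a and Trim25 passed, and 86 of all genes rose.

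No difference between the sexes was detected in these genes, which the choice of genes did not use. In the limma model of 4 groups the deletion effect in males minus that in females ranged from -0.28 to 0.45 on the log2 scale over the 7 kept genes. None passed (every adjusted p = 1.00, none with an unadjusted p below 0.05, none with voom), and 0.00% of all genes did. The SE was 0.320 for Trim25 and 1.117 for Trim34b, since males had 1 deleted library, so a sizeable difference would not have been seen. Male minus female fl/fl levels ranged from -0.37 (Trim30d) to 0.23 (Trim25), with limma adjusted p of 0.992 to 0.999. None had an unadjusted p below 0.05 and none passed with voom, while 0.0356% of all genes passed.

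In untransduced cells Trim30d, Trim21 and Trim25 were expressed well above the rest. Per kb of row, introns included, median fl/fl levels were 0.341 RPM for Trim30d (range 0.215 to 0.536), 0.323 for Trim21 (0.247 to 0.340) and 0.262 for Trim25 (0.209 to 0.312). These 3 ranges overlapped. Trim12a had 0.0158 RPM per kb (0.00946 to 0.0263), Trim12c 0.0141 (0.0114 to 0.0243) and Trim30a 0.00221 (0.00137 to 0.00325). Row length includes introns: Trim30d and Trim21 have 3758 and 3714 exon bases in rows of 37.8 kb and 7.5 kb, so no order is read within either set of 3. For Trim34a and Trim34b no level per length is given, since their rows are 5.41 and 4.93 times as long as the genes and hold reads of Trim12a. In deleted cultures the medians were 0.514 for Trim25, 0.385 for Trim30d and 0.264 for Trim21. Trim12a came to 0.0979, Trim12c to 0.0862 and Trim30a to 0.0232 RPM per kb.

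Of the neighbours that are not among the 8, Trim6, just upstream of Trim34a on chromosome 7 (104218793 to 104235152), had 12, 35, 35 and 45 reads in female del/del 1, 2 and 3 and male del/del 5. It had 7, 1, 4, 2 and 2 reads in female fl/fl 1, 2 and 3 and male fl/fl 5 and 7, and the groups did not overlap. Like Trim30a it failed the filter on low values, and it passed in the limma fit without the filter, at a log2 difference of 3.20 (SE 0.516), 9.17-fold. Trim5, whose promoter shares a run of 241 identical bases with that of Trim12a, differed by 2.24, -0.64, 0.69 and 0.12 on the log2 scale in lines 1, 2, 3 and 5. Trim68, near Trim21, had 0.45 (SE 0.178, limma adjusted p = 0.389). Across the whole family the table has 67 Trim rows, of which 41 were kept. Of the 34 kept rows outside the 8 genes, 0 rose and 0 fell by limma, 5 had an unadjusted p below 0.05 and 0 passed with voom; Trim6 is not among these 34. Their log2 differences ranged from -0.40 (Trim65) to 0.45 (Trim68), with 17 above 0. The 8 genes were set apart from the rest of the family with these results known, so the contrast between the sets is a description.

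**Figure D5:**
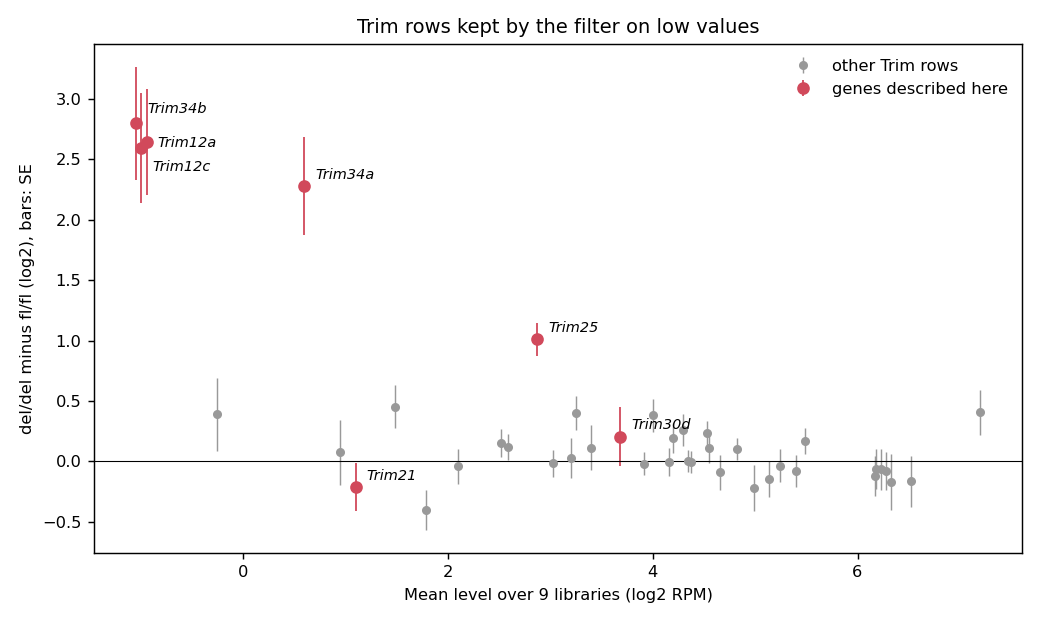
Difference of del/del minus fl/fl (log2, vertical axis, bars show the SE) against the mean level over 9 libraries (log2 RPM) for the 41 Trim rows kept by the filter. Trim34b, Trim12a, Trim12c, Trim34a and Trim25 lie above the rest of the family, whose values run from -0.40 to 0.45.

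Genes tied to the TRIM proteins were taken from lists. Of 24 kept partners and targets 2 rose and 0 fell by limma, with a median of 0.03, against 1.45% risen and a median of 0.00 over all genes. They were Ddx58, the RIG-I sensor that Trim25 modifies (log2 difference 0.78, SE 0.123, adjusted p = 0.0160), and Ifih1, which encodes the related sensor MDA5 (1.37, SE 0.174, adjusted p = 0.00751). Rnf135, a second ubiquitin ligase of RIG-I, had 0.49 (limma adjusted p = 0.453), and Zcchc3, a cofactor of RNA sensing, -0.13 (0.971). Of 17 kept genes of interferon signalling and induction 2 rose and 0 fell, among them Irf7, a transcription factor of interferon genes (1.75, SE 0.303, limma adjusted p = 0.0231). The feedback inhibitor Socs1 had 1.56 (limma adjusted p = 0.103) and Irf9 0.39 (0.242). Of 21 kept interferon response genes 8 rose and 0 fell, with a median of 0.67, where 1.45% of all genes rose. Among them were Rsad2, Oasl2, Irgm1 and Ifi44 with log2 differences of 1.75, 2.49, 0.87 and 2.59. Mean fl/fl levels were 0.95, -0.98, 2.08 and -0.90 in the same order, and -0.85 for Irf7. A row that is low in fl/fl passes the filter mainly where it is high in del/del. The counts of these lists are therefore a description. In the fit blocked by line, 12 of these 21 genes passed, all higher, where 3.77% of all genes rose. The other 8 of the 29 rows of this list were not kept. Among those 8, Ifit3, Mx1, Oas1a, Oas2, Oas3 and Zbp1 stayed below 0 in every library, deleted cultures included.

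Some genes outside the Trim family followed the TRIM genes closely over the 9 libraries, measured as the root mean square difference between log2 levels after subtracting each gene's mean. Rows of the Trim family and rows overlapping a member were left out of this ranking. Among the members' own rows that share reads, 2 pairs were nearer, with 0.113 between Trim34b and Trim12a and 0.344 between Trim34a and Trim12a. Trim34a and Trim34b (0.375) and Trim34a and Trim12c (0.638) were not nearer than the genes below. Outside the family, nearest to Trim34b were the guanylate-binding protein genes Gbp8 and Gbp9 and the Polycomb-related Sfmbt2, at 0.346, 0.389 and 0.437. Nearest to Trim12a were Gbp8, Ifi44 and Gbp9 at 0.365, 0.397 and 0.415, and nearest to Trim12c were Gbp9, Gbp8 and Sfmbt2 at 0.287, 0.315 and 0.400. For Trim34a they were the adenylate cyclase gene Adcy2 (0.371), Xkr4 (0.461) and Gm13139 (0.492). For Trim25 they were Hey2, a Notch target (0.121), Nudt7 (0.129) and Grk4 (0.156). Trim30d followed Atp5l (0.065), Amd1 (0.067) and Timm23 (0.082), and Trim21 followed Hhipl2 (0.125), Cgnl1 (0.130) and Gm15851 (0.134). The values are smaller for genes that vary less: the root mean square deviation from its own mean was 1.448 for Trim34b and 0.258 for Trim21. For the TRIM genes that rose, the measure also takes in the difference between deleted and control cultures, which was used in choosing them. Their nearest genes had such a log2 difference too, with 2.81 for Gbp8, 2.87 for Gbp9 and 2.59 for Ifi44. Beside 1.01 for Trim25, Hey2 had 1.06, Nudt7 1.04 and Grk4 0.81. Likeness within deleted or within control cultures alone was not tested, so these matches are a description.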

How the data were processed

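The authors deposited 1 table of log2 RPM values for 25965 rows and 9 libraries. Per the submitters' processing notes, bcl2fastq, TopHat2 2.0.12, edgeR 3.8.2 and the build mm10 were used; which counter, annotation release and strand mode were used is not stated there. Reads and depths were recovered from the spacing of low values: at least 99.9961% of values per library came out whole within 0.05 reads. Scaling was to all reads, of which 34.8% to 53.3% lay in rows. Of all rows 28.8% overlap another.

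Members and lists were chosen with earlier results of these data known. The 14044 rows with 3 or more libraries at a log2 level of 0 or higher entered limma (3.58.1, R 4.3.3; lmFit and trended eBayes, two-sided), Benjamini-Hochberg adjusted over all rows, threshold 0.05, sex as covariate; sex contrasts came from a model of 4 group means. The fit was tested on simulated data. p-values measure the spread between these libraries only. Cultures of 1 line were split from it per the labels' protocols; as a check, deviations from the group means correlated (across genes) at 0.868, 0.582 and 0.758 in female lines 1, 2 and 3, but del/del 2 with fl/fl 3 gave 0.728 and del/del 3 with fl/fl 2 gave 0.494, so the check does not separate lines 2 and 3. The pairing rests on the protocol. Named genes are all 8 members, chromosome 7 Trim rows within 1 Mb, rows overlapping a member, up to 4 members per list by smallest p, and the 3 nearest genes in pattern; 1 gene of the lists is not reported here. Spans, coding sequences and words came from GENCODE vM21 with Biopython 1.88, promoters from RefSeq. Alternatives changed the filter, pseudocount, normalization, block, name prefix, test and libraries.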

Additional observations from a re-analysis of the deposited data

How the results depend on the processing

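The count of rows of TRIM genes that passed over both sexes was 5, with the Trim34b and Trim12a rows holding nearly the same reads. It was 2 with quantile normalization and ranged from 0 to 5 when 1 library was left out: 0 without male del/del 5, 1 without female del/del 2 or 3, 2 without either female fl/fl 3 or female del/del 1, 4 without male fl/fl 5, and 5 otherwise. With the replicate block it was 5, as it was with the replicate block and median centring, and with the block in the female libraries alone (added after seeing the data); pairing by line thus changed no call among these genes. It was 6 with no filter on low values (Trim30a added) and 5 with log2(RPM + 1), median centring, voom, the name prefix as a covariate, or the 6 libraries with the prefix. Over all genes 203 rose and 14 fell. With quantile normalization 86 rose and 18 fell, with the replicate block 529 and 32, with the prefix as covariate 381 and 17, and with 1 library left out 2 to 243 rose and 0 to 15 fell. The cause of the changes was not tested. In 19 alternatives the log2 difference stayed above 0 for Trim34a (1.39 to 2.47), Trim34b (1.00 to 2.98), Trim12a (0.99 to 2.82), Trim12c (0.96 to 2.81) and Trim25 (0.89 to 1.19), the lowest values with log2(RPM + 1). Trim30d turned to -0.05 in the 6 libraries with the prefix. Counts of 0 for both sex comparisons were 0 in all 17 and 16 alternatives run; without male del/del 5 the effect in males could not be fitted. Depth limits the controls of Trim30a, Trim34b, Trim12a and Trim12c most, with 3, 5, 6 and 4 reads in female fl/fl 2.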
